A study of Mus musculus with 12 samples.

Results

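This comparison set splenocytes cultured with tumour cells that overexpress the membrane-bound semaphorin SEMA6A directly against splenocytes cultured with the same tumour line and the secreted semaphorin SEMA3A added as purified protein. The arrays were chosen by their labels alone: those naming SEMA6A overexpression without SEMA3A protein, and those naming SEMA3A protein without SEMA6A overexpression. That gave 3 arrays against 3, or 6 of the 12 arrays of the series, with no control array on either side of the difference. In the SEMA6A group, KLN-205 cells, a mouse squamous lung carcinoma line of DBA/2 origin, carried a SEMA3A knockdown and an overexpressed SEMA6A, and received no added protein. In the SEMA3A group, the KLN-205 cells carried the knockdown only, and SEMA3A was present at 10 µg/mL. The 6 arrays not compared directly were 3 from cultures with both semaphorins and 3 from control cultures with knockdown tumour cells alone, so the knockdown was common to every group. All splenocytes came from DBA/2 mice aged 10 weeks, were kept with the tumour cells for 9 days and received interleukin-2 at 100 units/mL every 3 days. Total RNA, 6 µg per array, was made into biotin-labelled cRNA and hybridised to single-colour Affymetrix arrays. Nothing in the labels ties the replicates to separate cultures or mice. The p-values below thus measure only the spread between arrays of the series, which may be technical. Whether the SEMA6A tumour cells were 1 clone is likewise not stated there.

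Semaphorins are guidance proteins first known from growing axons, and several of them act on immune cells. SEMA3A is secreted and binds a neuropilin (mainly NRP1), which pairs with a plexin of the A family as the signalling chain. SEMA6A stays anchored in the membrane of the cell that makes it and binds plexin A2 and plexin A4 directly, without a neuropilin. Plexins change the activity of small GTPases and, through them, the actin skeleton and integrins.

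Each deposited value is a MAS5 signal, a linear brightness of 1 probe set, and brightness cannot be compared from one probe set to another. Median signals over the 12 arrays lay between 42.5 and 53.5. Differences are given as SEMA6A minus SEMA3A on the scale of log2(signal + 16) after quantile normalization, which understates differences of dim genes, and quoted signals are the deposited ones. Among the T cell markers, Cd3e, a chain of the T cell receptor complex, gave 4039 to 6446 on the 12 arrays, and Cd4 gave 4.01 to 13 and was below the filter on dim probe sets. That filter passed 8 of 11 T cell, 4 of 6 natural killer (NK) cell and 4 of 8 macrophage markers. It also passed 4 of 7 mast cell and basophil markers and 6 of 8 squamous tumour markers. The summed signal of the tumour markers was 2230 to 3308 with SEMA6A and 2194 to 2761 with SEMA3A. On the 12 arrays, Cdh1 gave 1048 to 1869 and Epcam 610 to 1132, the largest parts of that sum. Krt5 gave 34.2 to 78.0, and Krt14 and Trp63 were below the filter. The amount of tumour RNA thus cannot be read from the sum. That of the mast cell and basophil markers was 2623 to 4284 with SEMA6A and 3128 to 5601 with SEMA3A. Its largest part was Mcpt8, at 1817 to 4108, and Fcer1a, Ms4a2 and Hdc were below the filter. An exact two-sided permutation test of 3 arrays against 3 cannot give a p below 0.1, so none of 15 array measures could pass. The groups did not overlap in 2 of them (exact permutation p = 0.1, adjusted 0.75). The highest signal was 45840 to 48871 with SEMA6A and 49713 to 53212 with SEMA3A. The 3'/5' signal ratio of Actb was 1.05, 1.23 and 1.06 with SEMA6A and 1.05 on each SEMA3A array, with a gap below the rounding. SEMA6A replicate 2 stood apart, with a 3'/5' ratio of the Gapdh control probe sets of 1.22 against 0.767 to 0.818 on the other 11 arrays. The ratio of the pyruvate carboxylase probe sets was 6.86, 15.5 and 10.3 on the SEMA6A arrays, against 6.66, 6.90 and 5.78 on the SEMA3A arrays. That of the transferrin receptor was 8.39, 35.7 and 23.3 with SEMA6A and 17.2, 17.6 and 18.1 with SEMA3A, and 5.93 to 12.2 on the 6 arrays not compared.

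No gene passed the test that set the membrane-bound against the secreted semaphorin. Of 11325 genes tested with limma, 0 (0%) passed a Benjamini-Hochberg adjusted p of 0.05, and the lowest adjusted p was 0.963, shared by 4348 genes. At an unadjusted p under 0.05 there were 485 genes (4.28%), fewer than the 566 that uniform p-values would give. Of these, 248 (2.19%) were higher and 237 (2.09%) lower in the SEMA6A cultures. In 826 genes (7.29%) the 3 SEMA6A arrays and the 3 SEMA3A arrays did not overlap, with 469 (4.14%) higher and 357 (3.15%) lower. Were the arrays exchangeable, a gene would split in this way with a probability of 0.1, which is above the share seen. Genes that met both conditions numbered 336 (2.97%).

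The absence of calls came with intervals that were narrow for most genes. Unless stated otherwise, standard errors, intervals and limma p-values pooled the spread of every group in the series, including those not compared. The median absolute log2 difference between arrays was 0.265 within the SEMA6A group and 0.183 within the SEMA3A group. It was 0.148 within the control group and 0.145 within the group with both semaphorins. The pooled errors may thus be too small for this contrast. The median gene differed by 0.11 in absolute log2 units, with a median standard error of 0.15. The 95% interval lay within a 2-fold difference for 10351 genes (91.4%) and within a 1.5-fold difference for 7651 (67.6%). With only the 6 arrays compared in the fit, the share within 2-fold was 89.7%. That fit gave 214 genes at an unadjusted limma p under 0.05, in place of 485. Among the 4472 genes whose mean signal over the 6 arrays exceeded 1000, a limit chosen after the values were seen, 4062 (90.8%) had an interval within 1.5-fold. Only 17 genes were past 2-fold, 11 higher and 6 lower, and in 15 of them the brighter group averaged a signal under 100.

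**Figure D1:**
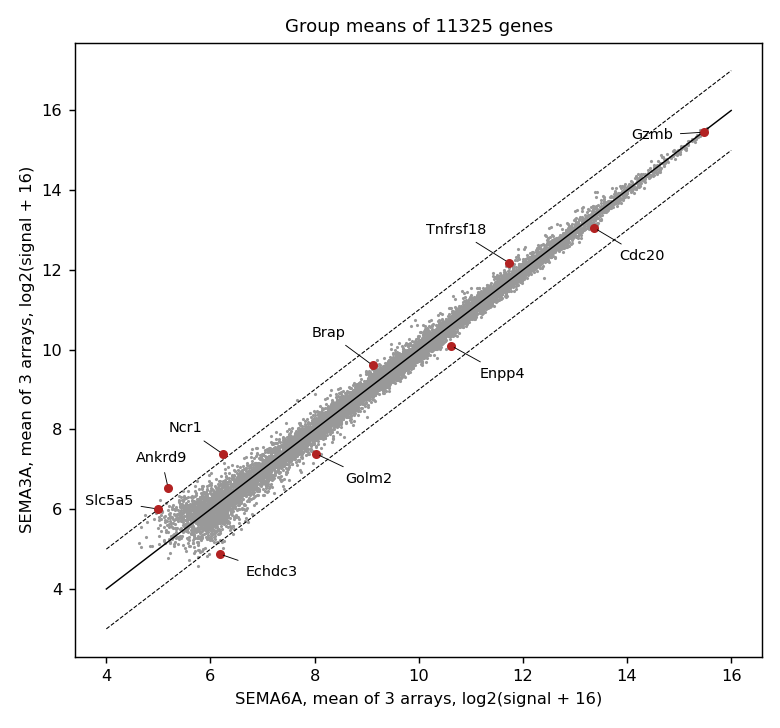
Mean log2(signal + 16) of each of the 11325 genes in the SEMA6A cultures (x axis) and in the SEMA3A cultures (y axis), 3 arrays each, with 10 named genes in red. The solid line marks equal means and the dashed lines a 2-fold difference: 17 genes, most of them dim, lie outside the dashed lines, and none passed the limma test.

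Among the 12 genes with the smallest p that were lower with SEMA6A were Ncr1, Tnfrsf18 and Mir155hg. Ncr1 encodes NKp46, an activating receptor of NK cells. Its signal was 40.0, 67.4 and 77.6 on the SEMA6A arrays, against 180, 117 and 170 on the SEMA3A arrays. All 3 SEMA6A arrays lay below all 3 SEMA3A arrays, and the 3 control arrays averaged 96.2 ± 12.5 (SD, n = 3), between the groups. The log2 difference was -1.15 ± 0.30 (SE), with a 95% interval of -1.80 to -0.50 and a limma adjusted p of 0.963. The other NK-related genes were mixed, and those with groups apart are given with the NK list below. Klrd1 (CD94) had 8493, 6938 and 10370 with SEMA6A against 7808, 10691 and 9302 with SEMA3A, and Eomes, a transcription factor of NK and cytotoxic T cells, differed by 0.07 ± 0.08. In a mixed culture such as this, fewer cells of a type and less RNA per cell cannot be told apart.

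The promoter of Ncr1 in the RefSeq reference (GRCm38.p6, strain C57BL/6J, chr7:4337465-4337764, plus strand, 250 bases before to 50 after the gene start) is shown because Ncr1 had the largest difference of any lymphocyte receptor listed. Capitals mark TGTGGT, or ACCACA on the opposite strand, the core letters that Runx factors bind, which occurred 2 times.
Ncr1 promoter: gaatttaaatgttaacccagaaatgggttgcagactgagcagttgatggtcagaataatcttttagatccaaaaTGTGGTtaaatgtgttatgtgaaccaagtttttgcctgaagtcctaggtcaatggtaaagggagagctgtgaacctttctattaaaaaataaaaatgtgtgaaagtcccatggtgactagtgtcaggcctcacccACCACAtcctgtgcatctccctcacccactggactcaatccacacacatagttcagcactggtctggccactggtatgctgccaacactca
These letters occur in 16.8% of the 32851 promoters in the RefSeq table and in 15.3% of the 9211 tested genes with a promoter there. They occur in 6 of 13 NK receptor list genes (46.2%) and in 14 of 19 cytotoxic granule list genes (73.7%). The promoter of Tnfrsf18, searched for the same letters, held 0 matches. A match is a description and not a binding site, and these shares were not tested.

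Tnfrsf18 encodes GITR, a costimulatory receptor of activated T cells. It gave 3606, 2841 and 3804 on the SEMA6A arrays, against 4888, 4667 and 4335 on the SEMA3A arrays. The groups did not overlap, and the controls averaged 3914 ± 574. The log2 difference was -0.45 ± 0.12, or 1.37-fold higher in the SEMA3A cultures, with an interval of -0.72 to -0.19 (limma adjusted p = 0.963). Other receptors of the family went either way. Tnfrsf10b, a receptor of the death ligand TRAIL, differed by -0.54 ± 0.25 and Cd27 by -0.27 ± 0.18, while Tnfrsf9 (4-1BB) differed by 0.12 ± 0.20 and Tnfrsf4 (OX40) by -0.02 ± 0.22, all with overlapping groups. Of 17 tested members of the TNF costimulation list, 8 were above and 9 below 0, beside 53% and 47% of all genes.

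Mir155hg is the host transcript from which the microRNA miR-155, induced when lymphocytes are activated, is cut. The host transcript gave 71.5, 85.3 and 98.3 on the SEMA6A arrays, against 157, 132 and 138 on the SEMA3A arrays. The groups did not overlap, the controls averaged 118 ± 14.3, and the log2 difference was -0.64 ± 0.16 (limma adjusted p = 0.963). The array measured the host transcript, not the mature microRNA. The mature sequence is given, from RefSeq (GRCm38.p6, chr16:84714143-84714165, plus strand), as the product of that transcript, with its seed, bases 2 to 8, in capitals.
mmu-miR-155-5p: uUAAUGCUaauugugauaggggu

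The smallest p of all belonged to Ankrd9, an ankyrin repeat protein. It gave 19.0, 31.5 and 11.8 on the SEMA6A arrays, against 70.2, 92.5 and 72.0 on the SEMA3A arrays. The groups were well apart, the controls averaged 62.4, and the log2 difference was -1.35 ± 0.28 (unadjusted p = 0.000312, limma adjusted p = 0.963). The size of this difference depended on the constant added before the logarithm: it was -1.91 with a constant of 1 and -0.73 with 64. Slc5a5, the sodium and iodide symporter, was of the same kind, with 15.5, 15.8 and 15 with SEMA6A against 67.0, 39.6 and 42.6 with SEMA3A. Both sat at the dim end of the array.

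Brap, a ubiquitin ligase that restrains Ras signalling, gave 482, 549 and 594 with SEMA6A against 765, 779 and 751 with SEMA3A, a log2 difference of -0.49 ± 0.11. A second probe set of Brap showed no such split, with 73.7, 60.3 and 82.2 against 72.8, 61.9 and 72.1. Ksr1, a scaffold of the Raf and MEK kinases, differed by -0.48 ± 0.15, with 3 of 3 probe sets in that direction. Fastk, a kinase family member that acts on mitochondrial RNA, differed by -0.46 ± 0.12. The other lower genes were Anapc16, a subunit of the anaphase-promoting complex, at -0.36 ± 0.11, Nudt17 at -0.93 ± 0.28, and Scyl2 and Rab12. For Scyl2, a clathrin-associated pseudokinase, and Rab12, a small GTPase of membrane traffic, the probe set used differed by -0.55 and -0.56, while another probe set of each gene pointed the other way.

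The 12 genes with the smallest p that were higher with SEMA6A differed by 0.26 to 1.30. Golm2, a Golgi membrane protein, gave 255, 249 and 241 with SEMA6A against 129, 189 and 145 with SEMA3A. The SEMA6A arrays lay above all SEMA3A arrays, and the log2 difference was 0.65 ± 0.15 (limma adjusted p = 0.963). The controls of Golm2 averaged 225 ± 10.4. Enpp4, an ectoenzyme that hydrolyses dinucleotides, gave 1489, 1501 and 1709 with SEMA6A against 918, 1182 and 1172 with SEMA3A, a log2 difference of 0.52 ± 0.13, and both of its probe sets were higher. Echdc3, an enoyl-CoA hydratase domain protein, gave 65.6, 50.7 and 54.7 against 8.51, 7.51 and 28.6, a log2 difference of 1.30 ± 0.34 at signals near the floor of the array.

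Cdc20, which activates the anaphase-promoting complex in mitosis, gave 10505, 11761 and 9553 with SEMA6A against 8177, 8279 and 8998 with SEMA3A. Its log2 difference was 0.32 ± 0.09 and the groups did not overlap. Its second brightest probe set did overlap, with 5009, 3693 and 4202 against 4290, 4410 and 4382. The proliferation marker Mki67 gave 10433, 11954 and 9928 against 10204, 10664 and 9194, a difference of 0.11 ± 0.08. Of 27 mitosis genes, 11 were above and 16 below 0, with a median of -0.02.

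Ppig, a peptidyl-prolyl isomerase of splicing speckles, differed by 0.26 ± 0.07, with 3 of 3 probe sets higher. Ik, a spliceosome protein, differed by 0.62 ± 0.17, with 4 of 4 probe sets higher but overlapping arrays. Cstf3, a subunit of the cleavage stimulation factor, differed by 0.27 ± 0.08. Actl6a, an actin-like subunit of the SWI/SNF remodelling complex, differed by 0.29 ± 0.08, with 3 of 3 probe sets higher. Psma5, a proteasome subunit, differed by 0.30 ± 0.09, Gtf2ird2 by 0.42 ± 0.12, and the zinc finger genes Zfp429 and Zfp959 by 0.58 ± 0.15 and 0.67 ± 0.19. Of the 24 genes named for their small p, 23 had groups that did not overlap. In 19 the control mean lay between the means of the SEMA6A and SEMA3A cultures. More than 1 probe set passed the filter in 12, and 6 of these had one in the other direction. These genes were selected from the same values, so these counts describe them and test nothing.

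**Figure D2:**
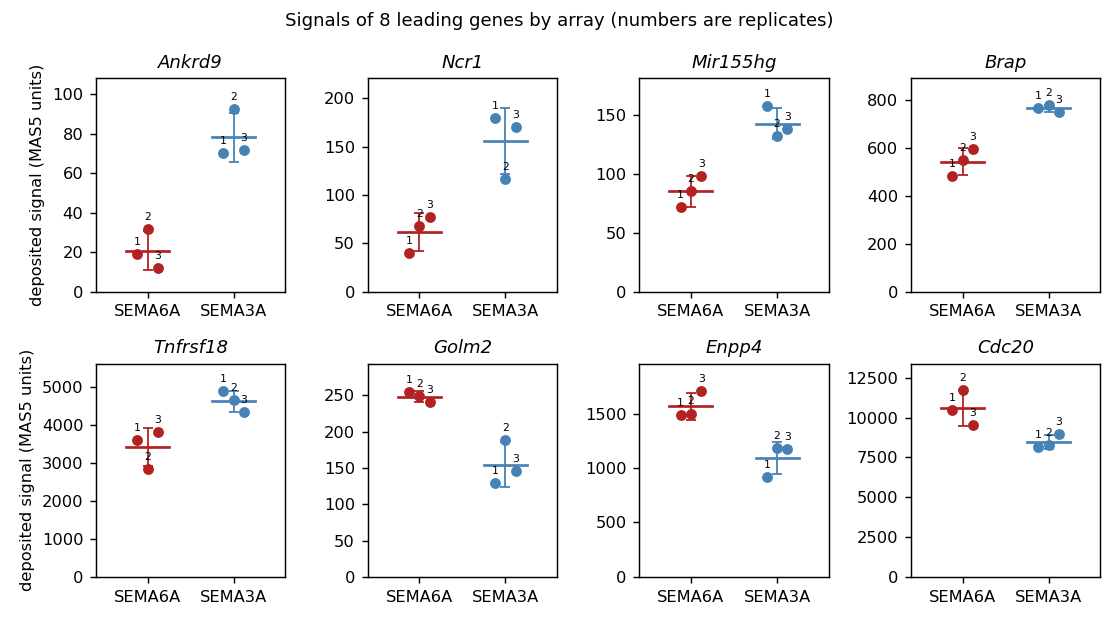
Deposited signal (linear axis from 0) of 8 genes on each array, SEMA6A in red and SEMA3A in blue, with the replicate number above each point, the group mean as a line and 1 SD as an error bar (n = 3). Ankrd9, Ncr1, Mir155hg, Brap and Tnfrsf18 lie lower and Golm2, Enpp4 and Cdc20 higher on all 3 SEMA6A arrays, and none passed the limma test.

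The largest differences with groups apart belonged to genes barely above the floor. With SEMA6A, Serpind1 (heparin cofactor II) differed by 1.35 ± 0.50, Kiss1r (the kisspeptin receptor) by 1.21 ± 0.48, the transcription factor Pax9 by 1.18 ± 0.40 and Rarres2 (chemerin) by 1.10 ± 0.37. Serpind1 shows the scale: 67.9, 66.1 and 45 with SEMA6A against 6.44, 3.74 and 40.2 with SEMA3A. In the other direction, Banf2 differed by -1.18 ± 0.40 and Fcna (ficolin A) by -1.12 ± 0.44. Of the 10 genes chosen for the largest difference, 9 averaged a signal under 100 in the brighter group, the exception being Ncr1.

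Nrp1 and the plexins of the A family, the receptors of SEMA3A and SEMA6A, gave dim signals, and none passed the limma test. Nrp1, the SEMA3A-binding neuropilin, gave 129, 73.3 and 82.7 with SEMA6A against 64.6, 40.9 and 109 with SEMA3A. The groups overlapped and the log2 difference was 0.39 ± 0.31. Plxna1, a plexin that pairs with neuropilins, gave 102, 77.6 and 89.2 against 76.1, 35.6 and 70.3. Its groups just failed to overlap and the log2 difference was 0.51 ± 0.25, with an interval of -0.04 to 1.05 that includes 0. Plxna4, which binds SEMA6A and also pairs with neuropilins, gave 40.8, 119 and 79.8 against 6.15, 77.2 and 68.8, a difference of 0.68 ± 0.47. Without SEMA3A replicate 1, the lowest of these arrays, the difference was 0.01. Every probe set of Plxna2, the plexin most closely tied to SEMA6A, and of Nrp2 was below the filter.

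Plxnb1, the plexin of SEMA4D, had the largest difference of the receptor list, 0.91 ± 0.39, and its size varied with the arrays used. It gave 82.1, 83.5 and 126 with SEMA6A against 112, 26.9 and 23.3 with SEMA3A. One SEMA3A array thus lay within the SEMA6A range. With 1 array left out the difference ran from 0.64 to 1.44, the latter without SEMA3A replicate 1. Cd72, a SEMA4D receptor of lymphocytes, gave 661, 586 and 760 against 914, 814 and 730, a difference of -0.29 ± 0.13. Of 20 receptor genes, 15 were tested, 7 were above and 8 below 0, and 2 (Plxnb1 and Cd72) had an unadjusted p under 0.05, beside 4.28% of all genes, with 0 after limma adjustment. The groups did not overlap in 2 of the 15, beside 7.29% of all genes.

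The semaphorins that the cultures themselves expressed had close group means where their signals were high. Sema4d (CD100), the main semaphorin of T cells, gave 6384, 8356 and 6976 with SEMA6A against 7400, 6993 and 6433 with SEMA3A, a difference of 0.06 ± 0.10. Sema4a, made by activated T cells, differed by -0.09 ± 0.17 (0.38 with another probe set), and Sema7a, which is anchored by a lipid, by -0.02 ± 0.30. The transcripts of Sema6a and Sema3a were at the floor of the arrays in both groups, and all 3 probe sets of each were below the filter. The brightest Sema6a probe set gave 40.1, 9.84 and 10.3 with SEMA6A against 8.70, 29.5 and 18.6 with SEMA3A. These arrays measured RNA of splenocyte cocultures, and how much of it came from tumour cells was not tested. Whether these probe sets read the overexpressed copy is not stated, so they do not check the overexpression.

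Downstream of the plexins, 32 of 40 listed signalling and cytoskeletal genes were tested, with 16 above and 16 below 0 and a median of 0.00. Rac1, a small GTPase that plexins bind, gave 8992, 8080 and 8830 with SEMA6A against 10039, 9631 and 9645 with SEMA3A. The groups did not overlap, but the difference was small, -0.16 ± 0.07, and with the probe set of the widest spread it was 0.06. Rac2, its counterpart in blood cells, gave 13442, 9480 and 13532 against 14222, 14277 and 14364, a difference of -0.23 ± 0.11. SEMA6A replicate 2 was the low array, and with 1 array left out the difference ran from -0.32 to -0.07. Enah, an actin elongation factor, gave 221, 252 and 258 against 131, 224 and 113, a difference of 0.65 ± 0.30. Cfl1 (cofilin) differed by 0.06 and Dpysl2, the collapsin response mediator first tied to SEMA3A, by -0.11. None passed the limma test.

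Among genes of the cytotoxic granule, which T and NK cells empty onto their targets, granzymes A and B and perforin had close group means. Gzmb (granzyme B) gave 46633, 38065 and 46683 with SEMA6A against 46161, 50605 and 43273 with SEMA3A. Its log2 difference was 0.01 ± 0.06, with an interval of -0.11 to 0.14. Gzma differed by -0.01 ± 0.07 and Prf1 (perforin) by -0.04 ± 0.16, with intervals of -0.17 to 0.15 and -0.38 to 0.30. Gzmb lies near the top of the arrays, whose highest signals were 44046 to 53212, and quantile normalization makes the brightest values of all arrays alike. Without it Gzmb differed by -0.10, Gzma by -0.12 and the list median was -0.10, and whether Gzmb was saturated was not tested. With another probe set Prf1 differed by 0.20. All 21 cytotoxic granule genes were tested, with 10 above and 11 below 0 and a median of -0.01. They ranged from -0.43 to 0.44, and 20 had an interval within 2-fold, beside 91.4% of all genes. Gzmk (granzyme K), higher with SEMA6A, ran from 0.20 to 0.78 with 1 array left out in turn.

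Gzmm (granzyme M, typical of NK cells) was the granule gene with the smallest p. It gave 360, 364 and 321 with SEMA6A against 499, 392 and 551 with SEMA3A. The groups did not overlap and the difference was -0.43 ± 0.18, with 0 of 21 passing the limma test. Of 16 tested NK receptor genes, 5 were above and 11 below 0, with a median of -0.09, beside 47% of all genes below 0 and a median of 0.01 over all genes. Besides Ncr1, the members with an unadjusted p under 0.05 comprised Fcer1g, the signalling chain of several activating receptors, with 13264, 14557 and 14583 against 17940, 15948 and 15248 and a difference of -0.21 ± 0.07. In the other direction, the NK receptor gene Klra7 differed by 0.37, or by -0.52 with another probe set. Klrb1f, also higher with SEMA6A, ran from 0.20 to 0.58 with 1 array left out in turn. Across the arrays left out in turn, the median of the NK list ran between -0.23 and -0.03, and it was 0.07 when the arrays were weighted. The summed signal of the NK markers was 14984 to 20690 with SEMA6A and 16664 to 20831 with SEMA3A, and its part in these differences was not tested.

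The T cell receptor complex had the lowest median of the 37 lists, -0.11, with 4 of 17 members above 0 and 13 below, beside 47% of all genes below 0, and none passing the limma test. It was -0.05 without SEMA3A replicate 3 and -0.03 with the probe set of widest spread per gene, and in neither case was it the lowest. Zap70, the kinase of the receptor, gave 2629, 2226 and 3027 with SEMA6A against 2989, 3062 and 3047 with SEMA3A, a difference of -0.22 ± 0.11, and with the probe set of widest spread the difference was 0.47. Cd8a showed how probe sets of 1 gene can disagree. The probe set used gave 3909, 1839 and 3980 against 1613, 3587 and 2627, a difference of 0.30 ± 0.31. Another gave 4150, 496 and 3777 against 1968, 4231 and 2986, a difference of -0.56. Both were lowest on SEMA6A replicate 2 or SEMA3A replicate 1. With the probe set used, the difference was -0.01 without SEMA3A replicate 1 and 0.67 without SEMA6A replicate 2.

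Secreted effectors differed more between arrays of 1 group than between the groups. Ifng gave 444, 326 and 248 with SEMA6A against 302, 332 and 534 with SEMA3A, a difference of -0.17 ± 0.22. Csf2 (GM-CSF) gave 658, 135 and 332 against 193, 298 and 1134, a difference of -0.35 ± 0.56 with an interval of -1.56 to 0.86. Xcl1, a chemokine that attracts cross-presenting dendritic cells, gave 1064, 151 and 591 against 244, 549 and 1600. For Csf2 and Xcl1, SEMA6A replicate 1 and SEMA3A replicate 3 were the high arrays of their groups. Of 21 listed effector cytokines only 10 were tested, and Il2 was below the filter.

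Inhibitory receptors split the arrays in the opposite way. Ctla4 gave 1083, 3692 and 2613 with SEMA6A against 3410, 2898 and 1132 with SEMA3A, a group difference of -0.04 ± 0.41. Lag3 gave 257, 988 and 604 against 620, 646 and 210, and Pdcd1 (PD-1) gave 439, 816 and 659 against 787, 566 and 227. In all 3 genes the low arrays were SEMA6A replicate 1 and SEMA3A replicate 3. Pdcd1 differed by 0.39 ± 0.34 and Lag3 by 0.27 ± 0.43. Pdcd1lg2, the ligand PD-L2, gave 1408, 991 and 1240 against 1513, 1261 and 1942, a difference of -0.36 ± 0.17, while Cd274 (PD-L1) differed by 0.02 ± 0.13. Of 20 tested members 10 were above and 10 below 0.

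Hypoxia and glycolysis genes followed the same array split, with group means nearly equal. Bnip3, a mitochondrial autophagy receptor and target of hypoxia-inducible factors, gave 10760, 15810 and 16347 with SEMA6A against 17581, 16743 and 10851 with SEMA3A. SEMA6A replicate 1 and SEMA3A replicate 3 were the low ones, and the difference was -0.07 ± 0.18. Slc2a1, the glucose transporter GLUT1, gave 4656, 8772 and 7108 against 8108, 6704 and 4448, with the same low arrays and a difference of 0.10 ± 0.23 (-0.04 with another probe set). Egln3, an oxygen-sensing prolyl hydroxylase, gave 2040, 4081 and 2293 against 3507, 2363 and 2038, a difference of 0.05 ± 0.27. Pkm, a pyruvate kinase gene, differed by -0.18 ± 0.13 and Ldha, lactate dehydrogenase, by 0.06 ± 0.07.

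Summed over a list, the split was plain. Relative to the mean of the 12 arrays, the 21 hypoxia genes outside glycolysis stood at -0.12, 0.44 and 0.30 in log2 units on the SEMA6A arrays and at 0.44, 0.29 and -0.06 on the SEMA3A arrays. The 21 glycolysis genes stood at -0.10, 0.39 and 0.21 with SEMA6A and at 0.31, 0.21 and -0.09 with SEMA3A, while the 3 control arrays averaged -0.20. The medians of the group difference were -0.01 and 0.02, and 0 of 42 members passed the limma test. Without SEMA3A replicate 3 the hypoxia median was -0.15, and without SEMA6A replicate 1 it was 0.13. The direction of the group difference in the hypoxia list thus turned with the single array left out.

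The Bnip3 promoter (RefSeq, GRCm38.p6, chr7:138909457-138909756, minus strand) is shown as an example of these genes, which varied together over the arrays. Capitals mark ACGTG, or CACGT on the opposite strand, the core letters of the hypoxia response element. They matched 2 times, once on each strand of 1 overlapping site.
Bnip3 promoter: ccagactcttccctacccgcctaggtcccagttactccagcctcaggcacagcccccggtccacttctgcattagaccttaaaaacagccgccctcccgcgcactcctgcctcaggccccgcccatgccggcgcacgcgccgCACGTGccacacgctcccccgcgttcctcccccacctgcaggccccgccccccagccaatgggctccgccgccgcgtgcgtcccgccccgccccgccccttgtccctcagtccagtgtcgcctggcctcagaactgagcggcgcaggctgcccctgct
These letters occur in 19.6% of the 32851 promoters and in 29.6% of the 9211 tested genes with a promoter. They occur in 17 of 20 hypoxia list genes (85.0%) and in 13 of 20 glycolysis list genes (65.0%). The lists were drawn from known targets, so this describes their make-up.

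**Figure D3:**
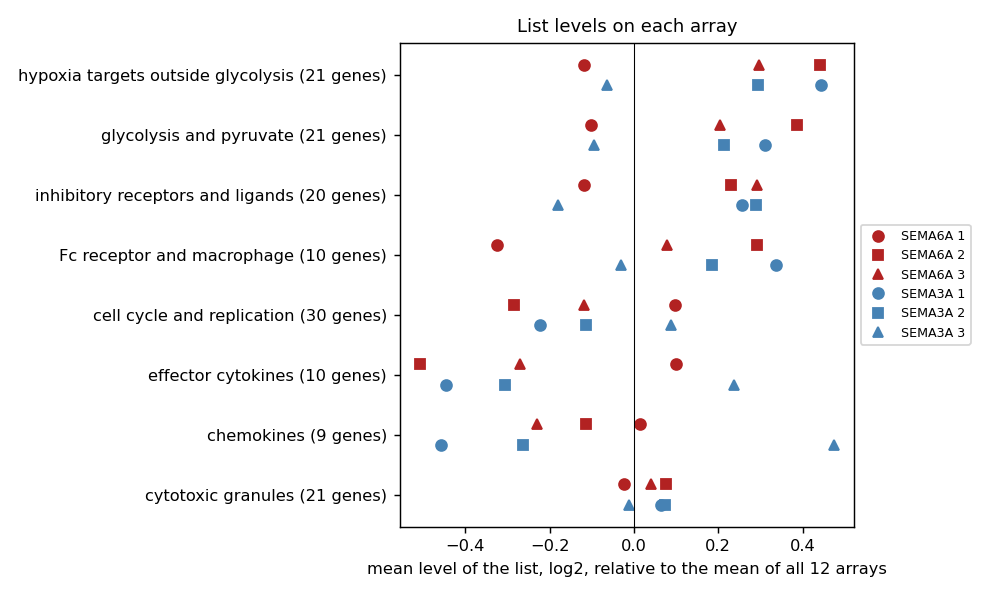
Mean level of the tested members of 8 gene lists on each array, in log2 units relative to the mean of all 12 arrays, with SEMA6A (red, upper) and SEMA3A (blue, lower) and a marker shape per replicate. In hypoxia, glycolysis and inhibitory receptors, SEMA6A 1 and SEMA3A 3 lie to the left of the other 4 arrays, and in effector cytokines they lie to the right.

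Over all genes the arrays did not sort by group, and SEMA6A replicate 2 lay farthest from the others. The median absolute difference between 2 arrays was 0.192 to 0.329 within the SEMA6A group, 0.149 to 0.205 within the SEMA3A group and 0.118 to 0.304 between the groups. For 5 of the 6 arrays, the most similar of the other 5 belonged to the other group. The closest pair was SEMA6A replicate 3 with SEMA3A replicate 2, at 0.118. Of these 6, SEMA6A replicate 1 was nearest to SEMA3A replicate 3, at 0.141, and SEMA6A replicate 2 lay at least 0.247 from every other array. Over all 12 arrays, SEMA6A replicate 1 was nearest to control replicate 2, at 0.115, and SEMA3A replicate 3 to control replicate 3, at 0.126. Within the control group the differences were 0.127 to 0.149, and within the group with both semaphorins 0.112 to 0.149, so the largest spreads were those within the SEMA6A and SEMA3A groups.

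**Figure D4:**
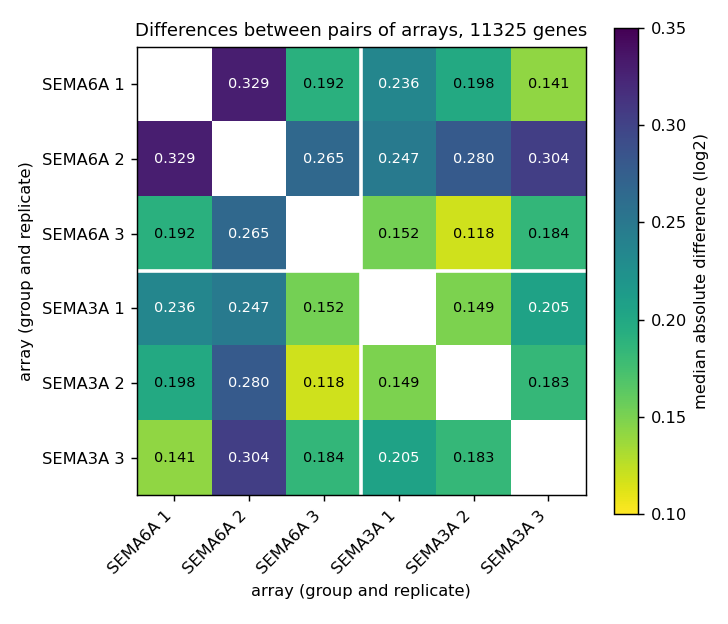
Median absolute log2 difference over 11325 genes for each pair of the 6 arrays, SEMA6A above and left of SEMA3A, with darker cells for larger differences. The smallest values, 0.118 and 0.141, lie between the groups, and the largest, 0.329, lies within the SEMA6A group.

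Some differences rested on SEMA6A replicate 2, the array with the highest 3'/5' ratios. Id2, a transcription factor of effector and NK cells, gave 15869, 6614 and 12318 with SEMA6A against 15805, 14285 and 18510 with SEMA3A, a difference of -0.53 ± 0.22. Without that array it was -0.18. Fdps, a farnesyl diphosphate synthase of the cholesterol pathway, gave 10509, 5311 and 10674 against 12302, 11276 and 11251, a difference of -0.45 ± 0.19, and without that array -0.13. Rfc3, a subunit of the clamp loader of DNA replication, gave 2838, 758 and 1971 against 2429, 2404 and 3021, a difference of -0.69 ± 0.32, and without that array -0.15. Ncr1, Tnfrsf18 and Mir155hg kept differences of -1.21, -0.33 and -0.64 without it. The part of the raised 3'/5' ratios in the other differences was not tested.

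The functional lists gave medians near 0 in the fit described, and these moved with the arrays and settings used. Of 821 listed genes, 753 were on the array, 667 were tested, 22 had an unadjusted p under 0.05, beside 4.28% of all genes, and 0 passed the limma test. In 35 of the 37 lists the median lay within 0.1 log2 units of 0, and the exceptions were the T cell receptor complex at -0.11 and the interferon-gamma induced genes at 0.11. When each of the 6 arrays was left out in turn, 32 of the 37 medians lay on both sides of 0, and the medians ran from -0.23 to 0.22. Over all alternatives they ran from -0.34, for the Fc receptor and macrophage list with the stricter filter, to 0.23, and as few as 25 of the 37 lay within 0.1. Individual list members beyond those above included Lef1, a factor of naive and memory T cells, at 0.33 ± 0.14 (-0.43 with another probe set), Jak1, the kinase of the interleukin-2 receptor, at -0.32 ± 0.11, and Egr2, an early gene of T cell receptor signalling, at -0.50 ± 0.22. Il2ra and Il2rb, chains of the interleukin-2 receptor, differed by 0.24 ± 0.18 and -0.07 ± 0.08.

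**Figure D5:**
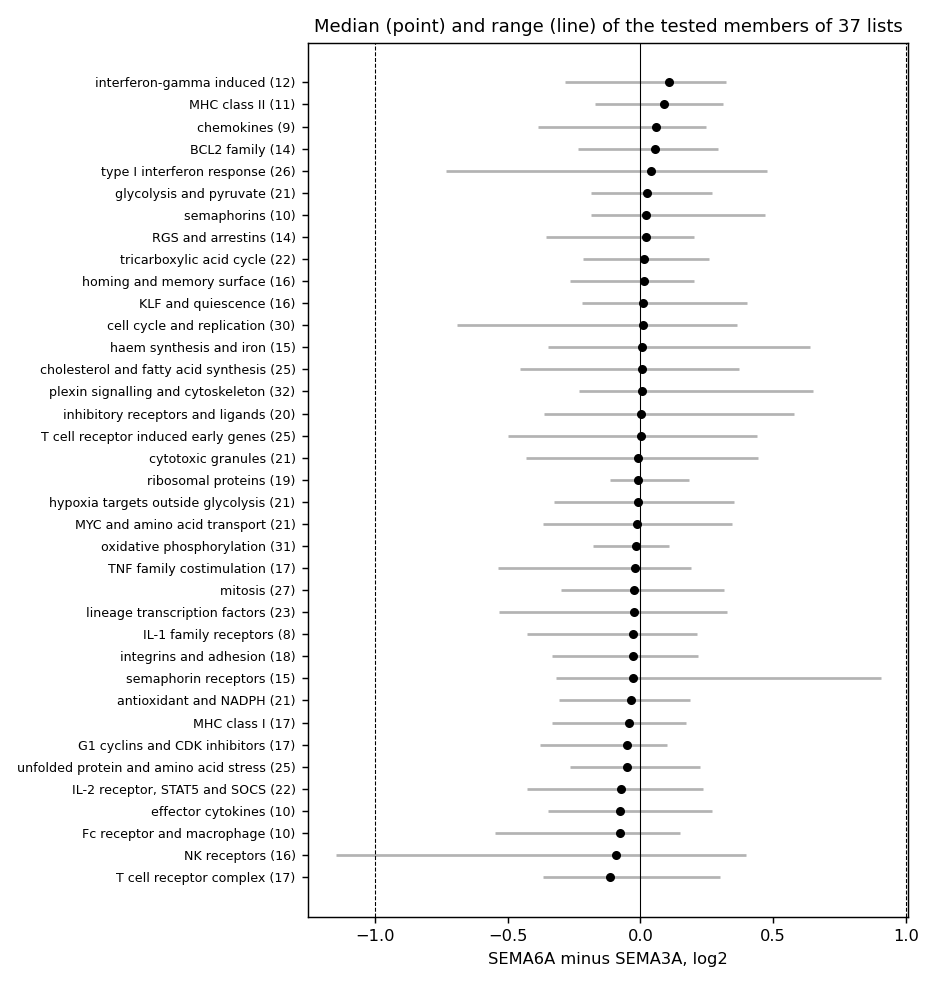
Log2 difference SEMA6A minus SEMA3A for the tested members of 37 gene lists (number of tested members in brackets), with the median as a point, the range over members as a line and dashed lines at a 2-fold difference. The medians lie between -0.11 and 0.11, and Ncr1, in the NK receptor list, is the only member past 2-fold.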

How the data were processed

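RNA of splenocyte cocultures was measured on 12 single-colour arrays in 4 groups of 3. The deposited intensity of each probe set is linear and was made by the authors with MAS5, per the submitters' processing notes (MAS5 version: not given in the sources used here). With the lowest and highest 2% of probe sets trimmed, the mean was 500 on every array. Neither scanner files nor detection calls were used. Of 45101 probe sets, 34945 named 1 gene in the platform annotation, with symbols checked against RefSeq (GRCm38.p6).

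Signals were taken as log2(signal + 16) and quantile normalized, since array medians differed 1.26-fold. Probe sets had to exceed the array's own median on at least 3 arrays, which 24366 did, and the one with the highest mean log2 per gene was used, giving 11325 of 18193 genes. Sums of cell type markers instead used the probe set with the highest mean signal. limma 3.58.1 in R 4.3.3 was fitted over all 12 arrays with 4 group means and a trended prior (8 residual and 5.14 prior degrees of freedom), and the SEMA6A minus SEMA3A contrast was adjusted by Benjamini-Hochberg at 0.05. Array measures were compared by exact permutation. The scripts were tested on simulated data, and precision is limited by the number of arrays.

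By rule, 228 genes were named: the 12 of smallest p and the 5 of largest difference in each direction, up to 5 members of smallest p per list, and a panel of semaphorin, receptor and effector genes. Not all list and panel genes so named are quoted, and the choice among them was made with the values known. Other members quoted (Klrd1, Eomes, Tnfrsf4, Tnfrsf9, Cfl1, Dpysl2, Il2ra, Il2rb, Iigp1) were chosen after their values were seen. The comparison, the lists and the panel were chosen with earlier results of these data known. Alternatives covered normalization, the added constant, the filter, the probe set, the arrays fitted, a replicate block, the prior, array weights and leaving out each array.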

Additional observations from a re-analysis of the deposited data

How the results depend on the processing

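No gene passed the adjusted threshold in limma under any of the 24 alternatives, 12 of which left out 1 array, and the lowest adjusted p ran from 0.176, without SEMA6A replicate 1, to 1.00. The 485 genes at an unadjusted p under 0.05 became 916 with no filter, 289 with a filter at the 75th percentile, 942 with every probe set counted, and 214 with only the 6 arrays fitted. The first 3 of these also change the number of genes or probe sets tested. Leaving out 1 array gave 332 to 1246, with 1246 without SEMA6A replicate 1, 810 without SEMA6A replicate 3 and 486 without SEMA6A replicate 2, of which 333, 335 and 182 were among the 485. The 826 genes without overlap became 1552 with no filter, 479 at the 75th percentile and 1573 with every probe set. They were 1446 to 2201 with 1 of the 6 compared arrays left out, where only 2 arrays of a group remain to overlap. Leaving out an array not compared kept them at 826. What a replicate number shares is not stated. Deviations of same-numbered SEMA6A and SEMA3A arrays from their group means correlated at -0.36, -0.08 and -0.22 over genes. Over all pairs of the 4 groups, same-numbered arrays correlated at -0.36 to 0.14. In groups of 3 the deviations of a gene cancel, so these values cannot decide whether the numbers pair the arrays. With the number as a replicate block, 393 genes had an unadjusted p under 0.05, or 108 with only the 6 arrays. With the probe set of widest spread, 83 of the 228 named genes were read by another probe set and 43 of them pointed the other way; among genes with an unadjusted p under 0.05 these were Rab12 (0.091), Rac1 (0.063), Lef1 (-0.43), Ifi35 (-0.29) and Zeb1 (-0.047); the cause was not tested. The share of intervals within 2-fold ran from 82.0%, with no filter, to 98.9%, with a constant of 64. With 3 arrays a group, dim genes are the least well measured: their differences depend on the added constant.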

Other observations

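Interferon-induced genes showed a further arrangement of the arrays. Iigp1, an interferon-inducible GTPase that attacks the vacuoles of parasites, gave 1456, 353 and 1477 on the SEMA6A arrays, against 364, 1562 and 678 on the SEMA3A arrays. The difference was 0.32 ± 0.59 on the log2 scale. Gbp2, a guanylate-binding protein, gave 1751, 1267 and 2064 against 989, 2169 and 1186, a difference of 0.27 ± 0.26. Relative to the mean of the 12 arrays, the 12 tested genes of the interferon-gamma list stood at 0.19, -0.42 and 0.21 with SEMA6A and at -0.39, 0.24 and -0.12 with SEMA3A. Both groups thus held a low array, SEMA6A replicate 2 and SEMA3A replicate 1, and the same arrays had the lowest Cd8a signals of their groups. Of the 12 genes, 9 were above and 3 below 0, and 0 passed the limma test. Of the 26 tested genes of the type I interferon list, 19 were above and 7 below 0, with a median of 0.04, beside 53% of all genes above 0.

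All 31 tested oxidative phosphorylation genes had an interval within 1.5-fold, with a median difference of -0.02. So did all 19 tested ribosomal protein genes, with a median of -0.01. The share was 67.6% over all genes and 90.8% over those with a mean signal above 1000. Quantile normalization makes bright genes alike, and without it the ribosomal median was -0.12. The 22 tested genes of the tricarboxylic acid cycle differed by -0.22 to 0.26. Of 30 tested genes of the cell cycle and replication list, 29 had an interval within 2-fold, beside 91.4% of all genes. Mcm5, a subunit of the replicative helicase, differed by 0.20 ± 0.09 and Mcm6, another, by -0.26 ± 0.13.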
